A study of Mus musculus with 6 samples.

Results

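The genes described here are 9 members of the Crumbs, Scribble and PAR1/LKB1 modules of epithelial cell polarity. They were taken by name: Crb3, Mpp5 (also called Pals1), Patj and Lin7c of the Crumbs module, Scrib and Dlg1 of the Scribble module, and Mark2, Mark3 and Stk11 of the PAR1/LKB1 module. All 9 were found by Ensembl identifier among the 20756 genes of the deposited table, and all 9 were high enough to be tested. The samples were mouse tumor organoids, 3-dimensional epithelial cultures derived from an intestinal tumor that had spread to the liver, on the C57BL/6 background. Organoids whose guide RNA targeted Prkci, which encodes atypical protein kinase C lambda/iota (sgPrkci, 3 libraries), were set against organoids with a scrambled guide (sgScr, 3 libraries; spelled sgScbr in the genotype label, with the description WT). Both groups were grown in basement-membrane extract with EGF, were left untreated, and were collected 72 h after they were plated. The series calls the libraries biological replicates. The number of clones behind each population is not given here, so p-values measure the spread between these libraries, and an effect of the guide and any other difference of the populations cannot be told apart.

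An epithelial cell has an apical surface, facing the lumen, and a basolateral surface, facing its neighbours and the matrix, separated by tight junctions. The Crumbs complex marks the apical membrane: the transmembrane protein Crb3 binds the scaffold Mpp5, which in turn binds the scaffolds Patj and Lin7c. The Scribble module, with the scaffolds Scrib and Dlg1 and the Lgl proteins, marks the basolateral membrane, as do the PAR1 kinases Mark2 and Mark3, which are switched on by the LKB1 kinase that Stk11 encodes. Atypical protein kinase C acts between them: it works with the apical complexes and phosphorylates Lgl proteins and PAR1 kinases, which keeps them off the apical membrane. The comparison asks whether targeting this kinase went with other transcript levels of its partners and antagonists.

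Among the members, the 2 genes that rose in sgPrkci organoids were Mpp5 and Crb3, by 1.38-fold and 1.28-fold. Patj and Lin7c, of the same apical complex, did not rise (log2 fold changes -0.33 and 0.01). Scrib was the member that fell, to 0.618 of its sgScr level. For the other 6 members the difference did not pass the threshold. The counts come to 3 of 9 members called (33.3%), against 31.8% of the 12195 genes tested, so the share is close to the background. By direction, 2 of 9 rose against 11.4% of all tested genes, and 1 of 9 fell against 20.5%. The libraries of the groups did not overlap for 3 of 9 members, against 43.0% of all tested genes. The median log2 fold change was -0.05 over the members and -0.11 over all tested genes. A log2 fold change is the difference of log2(CPM + 1) between sgPrkci and sgScr, where CPM is a gene's reads relative to all reads of its library, and was called at an adjusted p under 0.05 in limma's moderated test, with Benjamini-Hochberg adjustment over all tested genes.

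**Figure D1:**
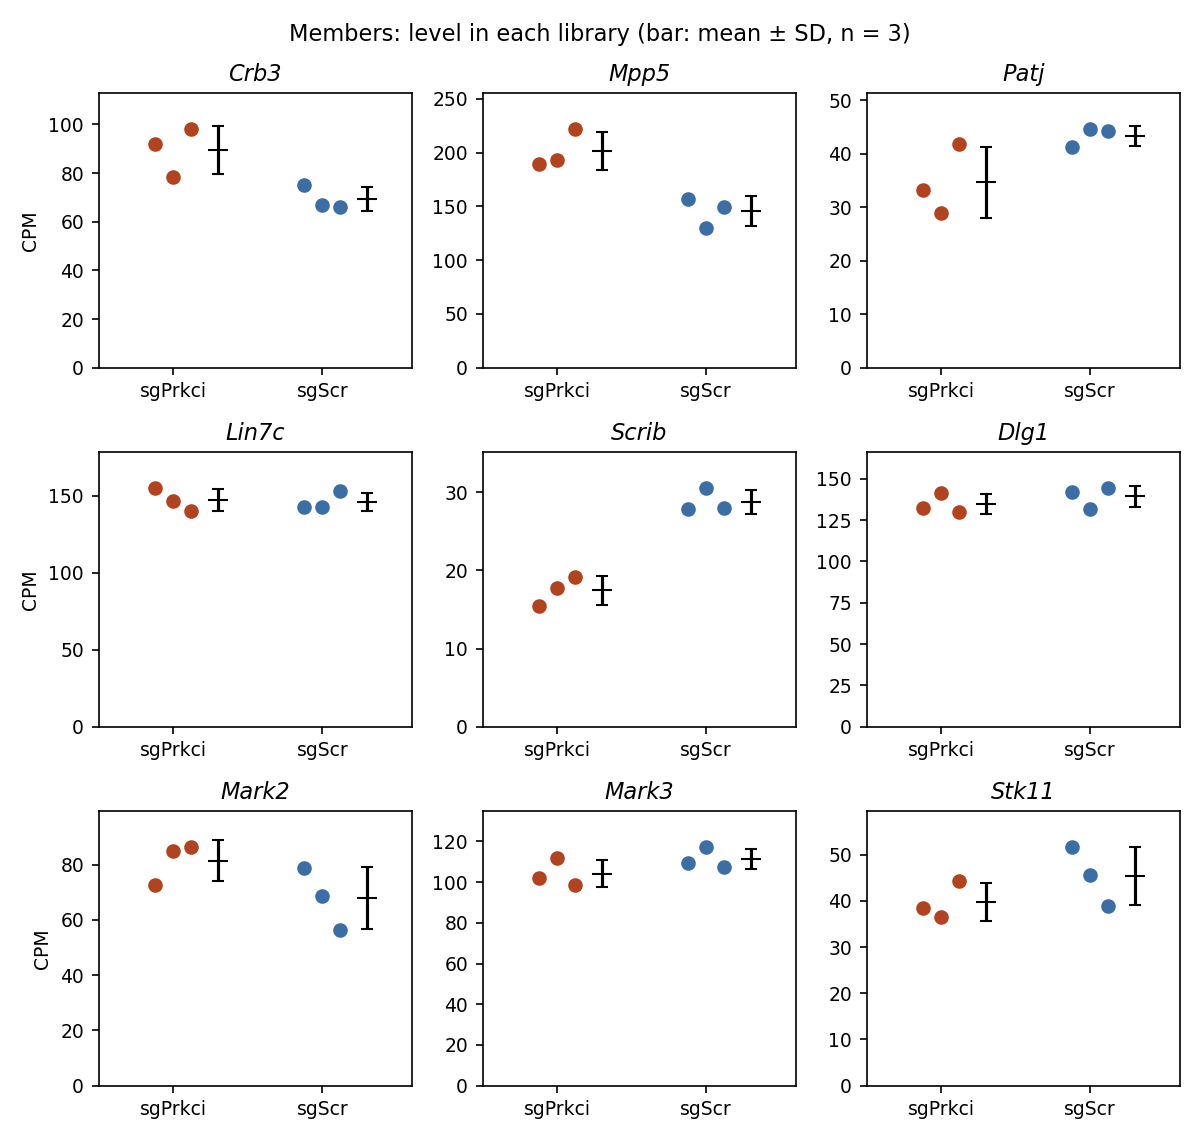
Level of each of the 9 members in every library, in CPM on a linear axis from 0, with the 3 sgPrkci libraries left of the 3 sgScr libraries; the black bar is the mean ± SD (n = 3). The groups are apart for Crb3, Mpp5 and Scrib, and overlap for the other 6 members.

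Depth was 2141125 to 2815760 reads in sgPrkci libraries and 2821908 to 3048170 in sgScr libraries, so that 1 read was worth 0.328 to 0.467 CPM. Epithelial markers (8 of 8 detected) summed to 3821 to 4191 CPM in sgPrkci and 3575 to 4106 CPM in sgScr libraries. Single markers went both ways within these sums. Epcam and Cldn4 rose (log2 fold changes 0.48 and 0.65) and Krt18 and Cldn7 fell (-0.36 and -0.45). Cdh1, Krt8, Krt19 and Cldn3 did not pass. Of 6 intestinal markers all had reads, with sums of 859 to 943 CPM in sgPrkci and 309 to 327 CPM in sgScr libraries. Cdh17, Lgr5, Gpa33 and Vil1 rose and Cdx2 fell. The largest part of the gap was the cadherin gene Cdh17, at 497 ± 39.6 CPM in sgPrkci and 75.4 ± 9.80 CPM in sgScr, and the part of these markers in the results below was not tested. Lgr5, Gpa33 and Vil1 were 1.84-fold, 1.74-fold and 1.65-fold higher in sgPrkci. Cdx2, a transcription factor that defines intestinal epithelium, was at 12.5 ± 2.43 CPM in sgPrkci and 25.8 ± 1.97 CPM in sgScr (SD, n = 3 each), and the related Cdx1 had at most 0.335 CPM in any library. Markers of other cell types were near 0: 6 of 7 fibroblast markers had reads, with sums of at most 2.34 CPM in sgPrkci and 2.35 CPM in sgScr, 1 of 6 leukocyte markers had at most 1.51 and 0.709 CPM, and 1 of 4 endothelial markers had 0 and at most 0.335 CPM. The 2 of 5 hepatocyte markers with reads summed to 0.355 to 1.13 CPM in sgPrkci and 1.97 to 16.1 CPM in sgScr. Nearly all of this was Apoa1, with 5 reads over the sgPrkci libraries and 69 over the sgScr libraries (adjusted p = 0.012 in limma). Alb had 0 reads in sgPrkci and 1 in sgScr, and Ttr had 0 in all 6 libraries. These sums rest on Apoa1 alone and do not show hepatocytes. In bulk samples, fewer cells of a type and less RNA per cell cannot be told apart.

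Because a 3' tag library counts about 1 tag per polyadenylated transcript, levels are per transcript and were not divided by gene length. In sgPrkci libraries the order of levels was Mpp5, Lin7c, Dlg1, Mark3, Crb3, Mark2, Stk11, Patj and Scrib. In sgScr libraries it was Lin7c, Mpp5, Dlg1, Mark3, Crb3, Mark2, Stk11, Patj and Scrib. Neighbours whose libraries overlapped in both groups were Crb3 with Mark2 and Stk11 with Patj. Lin7c overlapped with Dlg1 in sgPrkci, and Mpp5 overlapped with both Lin7c and Dlg1 in sgScr, whereas in sgPrkci all 3 libraries had more Mpp5 than any had of another member. The highest member on average over the 6 libraries, Mpp5, lay at percentile 92.1 of tested genes, and the lowest, Scrib, at percentile 52.4.

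The sequence before the Crb3 start site is shown because in human and canine epithelial cells the repressors of the Snail and ZEB families are known to bind E-boxes there, and the promoter of Patj because ZEB1 is known to repress it in human cells. Each run is the 250 bases before a start site, from RefSeq on GRCm38.p6, plus strand, with capitals for the motif CAGGTG or its reverse complement CACCTG, both of which also match the general E-box CANNTG.
Crb3 (chr17:57061951-57062200): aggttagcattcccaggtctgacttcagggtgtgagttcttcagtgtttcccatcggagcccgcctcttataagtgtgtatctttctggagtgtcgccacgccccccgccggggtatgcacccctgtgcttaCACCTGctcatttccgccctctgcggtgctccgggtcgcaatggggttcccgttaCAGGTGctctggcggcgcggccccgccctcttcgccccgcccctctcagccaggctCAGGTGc
Patj (chr4:98395576-98395825): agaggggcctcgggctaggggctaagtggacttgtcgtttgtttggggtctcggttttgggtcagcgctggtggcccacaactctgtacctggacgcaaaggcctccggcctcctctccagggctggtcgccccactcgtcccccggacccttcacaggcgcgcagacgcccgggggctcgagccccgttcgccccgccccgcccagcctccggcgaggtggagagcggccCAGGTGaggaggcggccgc
The Crb3 window lies inside the annotated span of the gene (57059105 to 57065918), so it precedes an internal start site and not the annotated gene start. It held 3 matches, starting 118, 63 and 7 bases before that start site. A second Crb3 window (57061981 to 57062230) overlaps the first and held the same 3 matches, so it adds no further sites. The Patj window held 1 match, and the other 2 Patj windows held 0. This Patj window runs past the annotated gene start (98395785), and its match, 19 bases before the start site, lies inside the annotated span. Of 32851 windows of the same length, 17.2% held at least 1 match and 0.247% at least 3. RefSeq windows were matched for 7 of the 9 members, with none for Mpp5 or Scrib. Of the other matched members, Mark2 held 1 match in the first of its 2 windows, and Lin7c, Dlg1, Mark3 and Stk11 held 0. The reads of the known binding factors were few: Zeb2 had 0 reads in sgPrkci libraries and 5, 2 and 3 in sgScr libraries, Zeb1 had 0 in sgPrkci and 1 in all of sgScr, and Snai1 had 0 in sgPrkci and 2 in sgScr. None of these 3 was high enough to be tested, and Snai2, looked up with them, was not among the deposited genes. These factors were looked up after the values of Crb3 were seen. The log2 fold change was 0.36 for Crb3 and -0.33 for Patj, which was not called. A part of these factors in either level was not tested. A match describes letters, and no binding was measured.

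Crb3 (ENSMUSG00000044279, chromosome 17, 57059105 to 57065918 on GRCm38) encodes the Crumbs protein of most epithelia. Its level was 92.0, 78.5 and 98.0 CPM in sgPrkci replicates 1, 2 and 3, against 75.1, 66.9 and 65.9 CPM in sgScr replicates 1, 2 and 3. All sgPrkci libraries lay above all sgScr libraries, the closest pair being 78.5 and 75.1 CPM. The mean was 89.5 ± 10.0 CPM in sgPrkci and 69.3 ± 5.03 CPM in sgScr, and Crb3 rose with a log2 fold change of 0.36 (SE 0.11, adjusted p = 0.014). Its call rested on single libraries: the adjusted p was 0.058 without sgPrkci replicate 1, 0.087 without sgPrkci replicate 3 and 0.059 without sgScr replicate 2. It was also 0.091 with plain moderation. Exons of Dennd1c lie on the opposite strand over those of Crb3, and the strand setting used in counting is not stated in the sources at hand.

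Mpp5 (ENSMUSG00000021112, chromosome 12, 78748907 to 78840714) encodes the scaffold that ties Crb3 to Patj and also binds the PAR complex. It was at 189, 193 and 222 CPM in sgPrkci libraries, against 157, 130.2 and 149 CPM in sgScr libraries. The lowest sgPrkci library was above the highest sgScr library by more than the SD of either group. Mpp5 rose with a log2 fold change of 0.47 (SE 0.10, adjusted p = 0.00034), and its call held under all 19 alternatives run, with log2 fold changes of 0.34 to 0.57. It was the only member called in the main setting of which that was true. The smallest of these values came from removing the median shift of each chromosome, where the adjusted p was 0.0089, and the highest adjusted p, 0.042, from plain moderation.

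Patj (ENSMUSG00000061859, chromosome 4, 98395785 to 98719603), a scaffold with many PDZ domains, was at 33.2, 29.0 and 41.9 CPM in sgPrkci libraries. Against these stood 41.2, 44.6 and 44.3 CPM in sgScr libraries. Of the sgPrkci libraries 1 lay above the lowest sgScr library, and the other 2 lay below all sgScr libraries. The log2 fold change was -0.33 (95% interval -0.62 to -0.04, adjusted p = 0.079). Patj passed when sgPrkci replicate 3 was left out (-0.47 on the log2 scale, adjusted p = 0.022) and with chromosome medians removed (-0.46, adjusted p = 0.016), and its sign was negative under all 19 alternatives.

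Lin7c (ENSMUSG00000027162, chromosome 2, 109890853 to 109901003), the small scaffold at the end of the chain, was at 155, 147 and 140.3 CPM in sgPrkci libraries and at 143, 143 and 153 CPM in sgScr libraries. The groups overlapped almost fully. Its log2 fold change was 0.01 with a 95% interval of -0.18 to 0.20 (adjusted p = 0.95), which leaves room for a difference of that size in either direction. Its sign turned without sgPrkci replicate 1, sgScr replicate 1 or sgScr replicate 2.

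Within a library, the balance of the Crumbs scaffolds does not depend on scaling between libraries. There were 5.70, 6.68 and 5.29 tags of Mpp5 for each tag of Patj in sgPrkci libraries, against 3.81, 2.92 and 3.37 in sgScr libraries. Every sgPrkci library was above every sgScr library. The ratio of Mpp5 to Crb3 was 2.26 ± 0.204 in sgPrkci and 2.10 ± 0.159 in sgScr (SD, n = 3 each), and there the libraries overlapped. These ratios were chosen after the values of the genes were seen, and they are given without a test.

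Scrib (ENSMUSG00000022568, chromosome 15, 76047158 to 76069784) encodes the scaffold that gives the basolateral module its name. It was at 15.5, 17.7 and 19.2 CPM in sgPrkci libraries and at 27.8, 30.5 and 28.0 CPM in sgScr libraries. The highest sgPrkci library was well below the lowest sgScr library. In reads these were 133 over the sgPrkci libraries and 255 over the sgScr libraries, a ratio by depth of 0.607 with an exact 95% interval of 0.488 to 0.751 that covers counting error only. Scrib fell by 0.69 on the log2 scale (SE 0.16, adjusted p = 0.0015). The median log2 fold change of chromosome 15, where Scrib lies, was -0.37. With chromosome medians removed, the log2 fold change of Scrib was -0.41 and its call ended at adjusted p = 0.051. Under the other 18 alternatives it passed.

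Dlg1 (ENSMUSG00000022770, chromosome 16, 31663443 to 31875129), a Discs large scaffold, was at 132, 142 and 129.98 CPM in sgPrkci libraries. In sgScr libraries it was at 142, 132 and 144 CPM, so the groups overlapped. The log2 fold change was -0.05 (95% interval -0.24 to 0.14, adjusted p = 0.73), and it was above 0 with TMM or median-of-ratios factors, edgeR and DESeq2. The ratio of Dlg1 tags to Scrib tags was 8.56, 7.97 and 6.78 in sgPrkci libraries, against 5.10, 4.32 and 5.15 in sgScr libraries. The groups did not overlap in this ratio, which was also chosen after the values were seen.

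Mark2 (ENSMUSG00000024969, chromosome 19, 7275396 to 7341860), a PAR1 kinase of the lateral membrane that phosphorylates microtubule-associated proteins, was at 72.8, 85.0 and 86.3 CPM in sgPrkci libraries. It was at 78.8, 68.6 and 56.3 CPM in sgScr libraries. The highest sgScr library lay above the lowest sgPrkci library. The log2 fold change was 0.27 (95% interval 0.02 to 0.51, adjusted p = 0.094). Mark2 was the member whose call changed with the scaling of the libraries: it passed with TMM factors (0.37, adjusted p = 0.021), median-of-ratios factors (0.37, adjusted p = 0.021) and edgeR (0.36, adjusted p = 0.020), and without sgScr replicate 1 (0.38, adjusted p = 0.015).

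Mark3 (ENSMUSG00000007411, chromosome 12, 111574523 to 111656221), the most abundant PAR1 kinase gene here, was at 102, 112 and 98.7 CPM in sgPrkci libraries and at 109.6, 117 and 107 CPM in sgScr libraries. The ranges overlapped. The log2 fold change was -0.10 (95% interval -0.30 to 0.11, adjusted p = 0.49) and was above 0 with TMM or median-of-ratios factors, edgeR and DESeq2. Of all MARK tags, Mark3 had 50.9, 50.1 and 47.8% in sgPrkci libraries and 53.0, 57.1 and 58.7% in sgScr libraries. Its share was lower in every sgPrkci library than in any sgScr library, a comparison within libraries that was chosen after the values were seen and not tested.

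Stk11 (ENSMUSG00000003068, chromosome 10, 80115803 to 80130682) encodes LKB1, the tumor suppressor kinase that activates Mark2, Mark3 and related kinases. It was at 38.5, 36.4 and 44.4 CPM in sgPrkci libraries, against 51.6, 45.6 and 39.0 CPM in sgScr libraries. The groups overlapped. The log2 fold change was -0.18 (95% interval -0.46 to 0.10, adjusted p = 0.33), with no call and the same sign under all 19 alternatives. Exons of Cbarp, which had 193 reads in the 6 libraries, overlap those of Stk11 on the opposite strand.

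**Figure D2:**
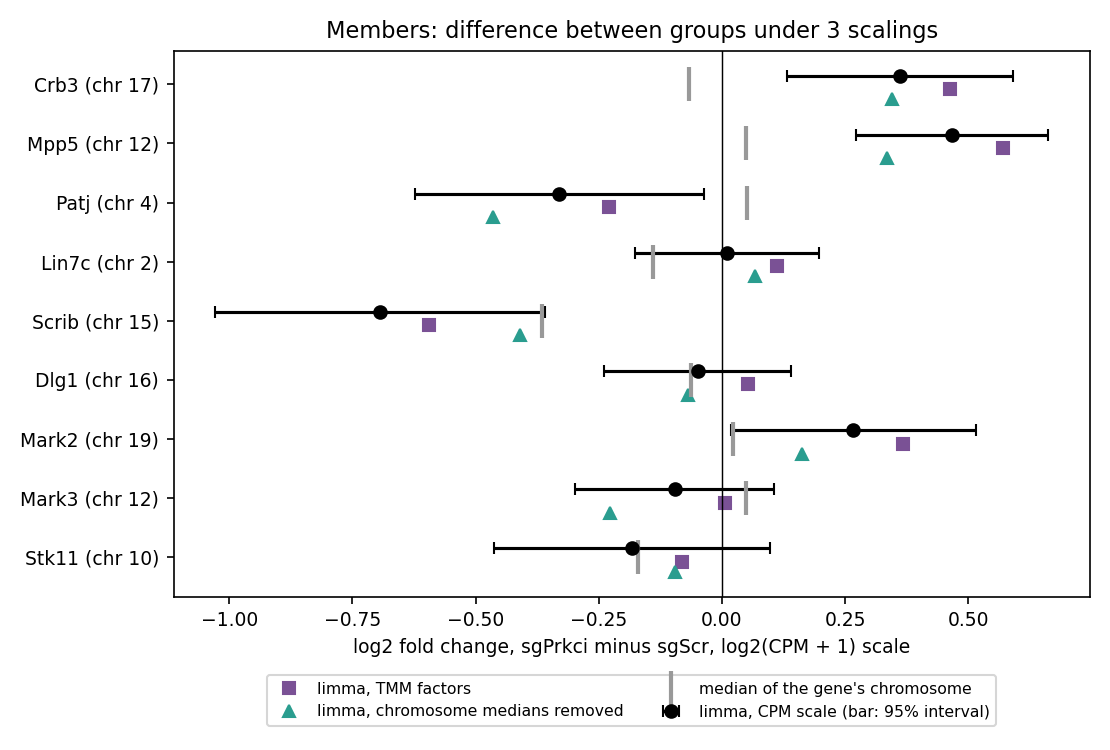
Log2 fold change of each member, sgPrkci minus sgScr in units of log2(CPM + 1): black points are the limma estimates on CPM with 95% intervals, squares the estimates with TMM factors, triangles those with chromosome medians removed, and grey ticks the median of the gene's chromosome. Mpp5 and Crb3 stay above 0 in the 3 settings drawn, Scrib and Patj stay below 0, and Scrib (-0.69) moves to -0.41 when the chromosome 15 median (-0.37, before it is set against that of all genes) is removed.

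The wider list of 63 genes of these modules, which includes the 9 members, had 57 genes in the table and 50 tested, and Crb1, Crb2, Lin7a, Dlg2, Lrrc7 and Brsk2 were not analysed here. Of the 50 tested genes 7 rose, 11 fell and 32 did not pass. Their median log2 fold change was -0.06, against -0.11 for all tested genes. That is 36.0% called, against 31.8% of all tested genes. The split of higher and lower calls moved with scaling, to 10 higher and 9 lower with TMM factors, where all genes had 1918 higher and 1816 lower in place of 1387 and 2495.

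**Figure D3:**
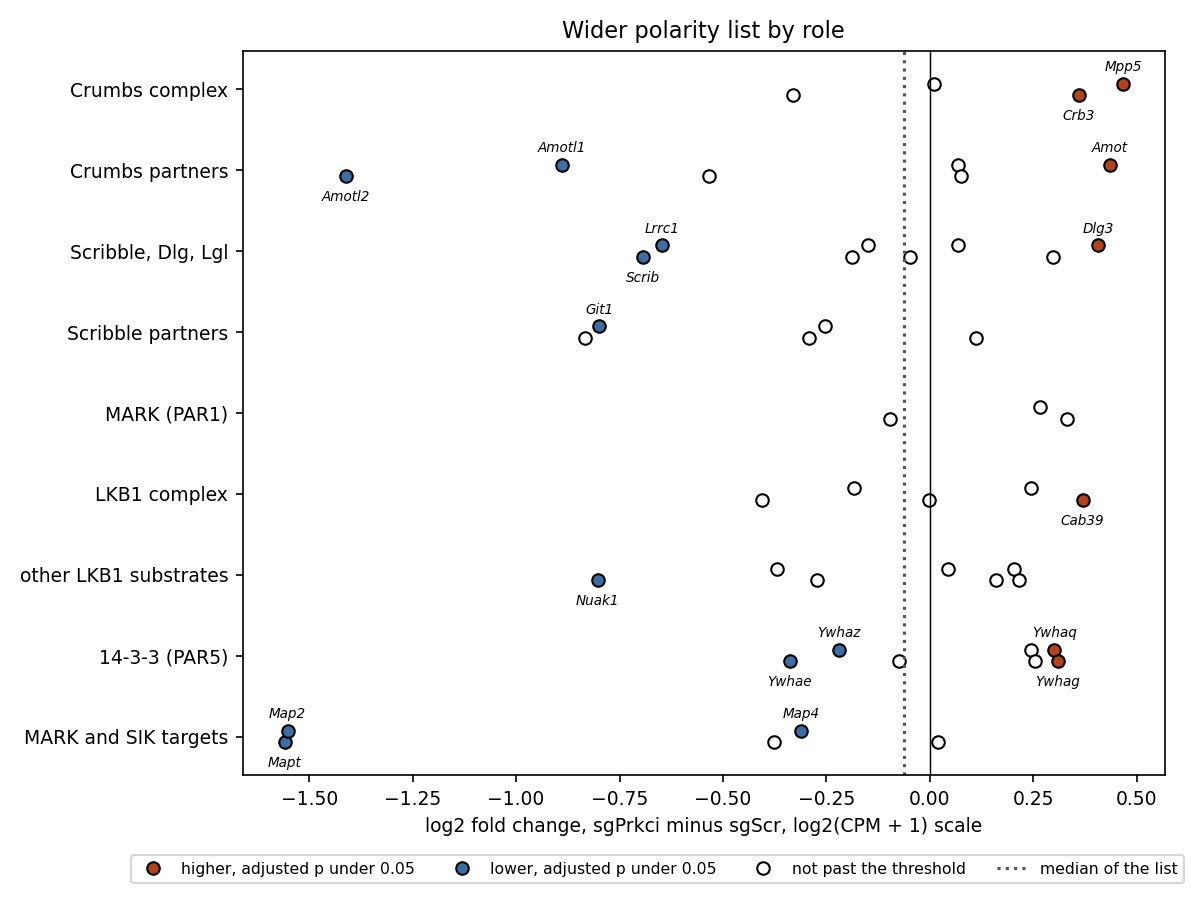
Log2 fold changes, sgPrkci minus sgScr in units of log2(CPM + 1), of the 50 tested genes of the wider polarity list, 1 row per role; filled points passed an adjusted p of 0.05 in limma, and the dotted line is the median of the list, -0.06. Amotl2, Mapt and Map2 lie farthest to the left, and none of the 7 genes that rose reached a log2 fold change of 0.5.

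Around the Crumbs complex the angiomotins differed among themselves. These proteins bind Patj and Mpp5 at junctions and are also known to hold the co-activator YAP in the cytoplasm. Amotl2 was at 9.81, 14.5 and 12.4 CPM in sgPrkci libraries, against 30.5, 33.5 and 37.9 CPM in sgScr libraries, and fell by 1.41 on the log2 scale (SE 0.18, adjusted p = 3.4e-07). Amotl1 fell to 33.2 ± 4.03 CPM in sgPrkci, against 62.3 ± 5.02 CPM in sgScr (log2 fold change -0.89, SE 0.13, adjusted p = 4.6e-06). Both calls held under all 19 alternatives. Amot rose to 58.0 ± 2.81 CPM in sgPrkci, against 43.4 ± 10.3 CPM in sgScr (log2 fold change 0.44, adjusted p = 0.017), a call that ended when sgPrkci replicate 1 or 3, or sgScr replicate 2 or 3, was left out, with plain moderation and with chromosome medians removed. Amot made up 56.5, 55.9 and 55.8% of angiomotin tags in sgPrkci libraries, against 37.9, 27.7 and 27.3% in sgScr libraries. Of the 6 tested Crumbs partners, the other 3 (Mpp2, Mpp7 and Epb41l5) did not pass. In the whole Crumbs module 3 of 10 tested genes rose, 2 fell and 5 did not pass. Both the partners and the module had 50.0% called, against 31.8% of all tested genes. Lin7b was in the table but too low to be tested.

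In the Scribble module 1 of 13 tested genes rose, 3 fell and 9 did not pass, so that 30.8% were called, against 31.8% of all tested genes. Dlg3, an X-linked Discs large scaffold, rose to 145.3 ± 7.41 CPM in sgPrkci, against 109.95 ± 15.5 CPM in sgScr (log2 fold change 0.41, adjusted p = 0.0028). Lrrc1, also called Lano, is a close relative of Scrib, and it fell to 14.4 ± 1.16 CPM in sgPrkci, against 23.2 ± 2.14 CPM in sgScr (log2 fold change -0.65, adjusted p = 0.0052). Git1, a scaffold that Scrib reaches through the exchange factor of Arhgef7, fell to 9.42 ± 1.11 CPM in sgPrkci, against 17.1 ± 0.991 CPM in sgScr (log2 fold change -0.80, adjusted p = 0.0025). Git1 lies on chromosome 11, whose median log2 fold change was -0.40, and its call ended with chromosome medians removed and with DESeq2. The call of Dlg3 ended with plain moderation and that of Lrrc1 with DESeq2. The Lgl genes Llgl1 and Llgl2, whose proteins atypical protein kinase C phosphorylates, had log2 fold changes of 0.30 (adjusted p = 0.26) and -0.15 (adjusted p = 0.61). Llgl1 shares exons with Flii on the opposite strand, and it passed with chromosome medians removed.

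In the PAR1/LKB1 module 3 of 27 tested genes rose, 6 fell and 18 did not pass, so that 33.3% were called, against 31.8% of all tested genes. None of the 3 tested MARK genes (Mark2, Mark3 and Mark4) passed in limma on CPM, although 1 of them (Mark2) was below an unadjusted p of 0.05, and Mark2 and Mark4 passed with edgeR while DESeq2 called none. Cab39, which encodes the MO25 scaffold that holds LKB1 active, rose to 187 ± 24.2 CPM in sgPrkci, against 144 ± 4.57 CPM in sgScr (log2 fold change 0.37, adjusted p = 0.0040). Its call ended with plain moderation and with chromosome medians removed, where chromosome 1 had a median of 0.18. For Strada, which encodes the pseudokinase partner of LKB1, the log2 fold change was -0.40 (adjusted p = 0.19). Exons of Ccdc47, which had 2433 reads in the 6 libraries, overlap those of Strada on the same strand, so the strand cannot separate tags there. Among the other kinases that LKB1 activates, Nuak1 fell to 20.6 ± 3.63 CPM in sgPrkci, against 36.7 ± 6.81 CPM in sgScr (log2 fold change -0.80, adjusted p = 0.00044), under all 19 alternatives as well. The other 6 tested did not pass, so that 14.3% of these kinases were called, against 31.8% of all tested genes.

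Of the 5 tested genes listed as targets of MARK and SIK kinases, 3 fell, 0 rose and 2 (Crtc1 and Crtc3) did not pass. That is 60.0% called, against 31.8% of all tested genes, of which 20.5% fell. Crtc2 was too low to be tested. The 3 that fell encode microtubule-associated proteins that MARK kinases phosphorylate, and the call of Map4 ended under 8 of 19 alternatives. Mapt, the tau gene, had 11 reads over the sgPrkci libraries and 55 over the sgScr libraries, a ratio by depth of 0.233 (exact 95% interval 0.110 to 0.450, counting error only; adjusted p = 0.00019 in limma). Map2 had 13 and 57 reads, a ratio of 0.265 (0.133 to 0.491; adjusted p = 0.00092). Both calls held under the 18 alternatives that could be run for them, since a filter at 5 CPM left them out. Mapt and Map2 are best known as neuronal genes, and here they were at 1.45 ± 0.412 and 1.68 ± 1.49 CPM in sgPrkci and at 6.25 ± 1.45 and 6.43 ± 2.58 CPM in sgScr. Map4, the form found in most tissues, fell to 111 ± 8.88 CPM in sgPrkci, against 138 ± 8.93 CPM in sgScr (log2 fold change -0.31, adjusted p = 0.015). The call of Map4 ended with TMM or median-of-ratios factors, edgeR, DESeq2 and plain moderation, and without sgPrkci replicate 1 or sgScr replicate 3.

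The PAR5 proteins of the Ywha family bind partners that PAR1 kinases and atypical protein kinase C have phosphorylated. Of 7 tested genes 2 rose, Ywhag and Ywhaq, and 2 fell, Ywhae and Ywhaz (57.1% called, against 31.8% of all tested genes). Ywhae was at 765 ± 15.95 CPM in sgPrkci and 967 ± 47.4 CPM in sgScr (log2 fold change -0.34, adjusted p = 0.00038). Ywhag was at 394 ± 10.1 CPM in sgPrkci and 318 ± 8.35 CPM in sgScr (log2 fold change 0.31, adjusted p = 0.0026). As a share of the tags of the family, Ywhae held 29.96 ± 0.499% in sgPrkci and 35.5 ± 1.82% in sgScr, and Ywhag 15.5 ± 0.642% in sgPrkci and 11.7 ± 0.278% in sgScr. All 4 calls ended with plain moderation. Those of Ywhae, Ywhaq and Ywhaz also ended with chromosome medians removed, where the sign of Ywhaz turned. Ywhaz also lost its call with TMM or median-of-ratios factors, edgeR and DESeq2, and when sgPrkci replicate 2 or 3, or sgScr replicate 2 or 3, was left out. Ywhah was not called in the main setting (log2 fold change 0.24, adjusted p = 0.055 in limma) but passed as higher under 9 of 19 alternatives. Among these were TMM and median-of-ratios factors, quantile normalization, edgeR and DESeq2.

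**Figure D4:**
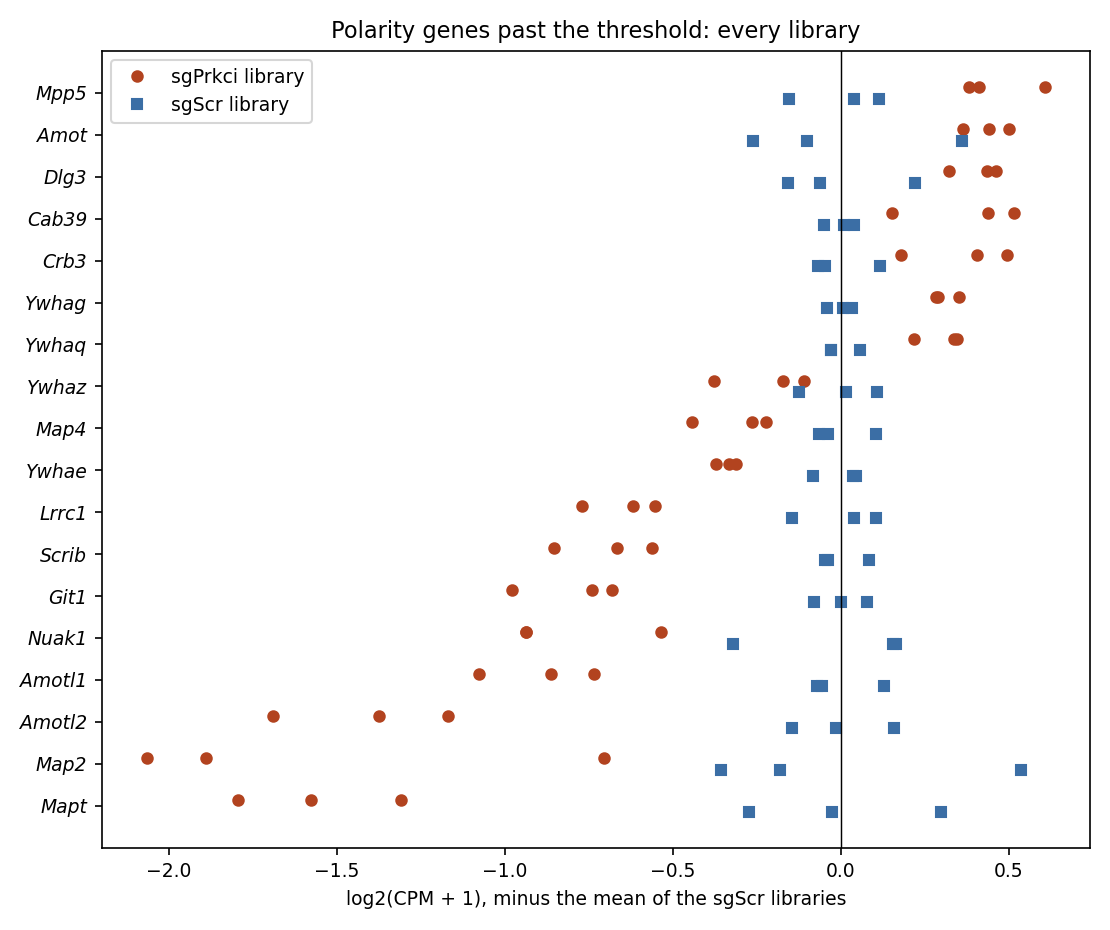
Level of the 18 genes of the wider list that passed the threshold, as log2(CPM + 1) minus the mean of the sgScr libraries, with 1 point per library (circles sgPrkci, drawn above the squares of sgScr). In 17 of the 18 genes every sgPrkci library lies on 1 side of every sgScr library, and Ywhaz is the exception. The 18 genes were picked by their calls in these same libraries, so this separation is no separate result. The groups did not overlap for 40.0% of the 50 tested genes of the wider list and for 43.0% of all tested genes.

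Of the kinase complex itself, Prkci was at 53.9, 56.5 and 46.9 CPM in sgPrkci libraries and at 46.6, 54.5 and 63.8 CPM in sgScr libraries. Its groups overlapped (adjusted p = 0.77), and since the place of the guide is not given and a 3' tag outside the edit does not report it, these reads do not check the labels. Cdc42, the GTPase that activates the PAR complex, rose to 422 ± 37.9 CPM in sgPrkci, against 322 ± 28.2 CPM in sgScr (log2 fold change 0.39, adjusted p = 0.00076), a call that ended with plain moderation (adjusted p = 0.070). Pard3 had a log2 fold change of -0.24 at an adjusted p of 0.0496, a call that ended under 15 of 19 alternatives.

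Over the 6 libraries, the tested gene at 10 CPM or more whose log2(CPM + 1) profile was most like that of Scrib was Ftsj3 (Pearson's r = 0.9995, with 423 of 7987 genes above 0.95). For Mpp5 it was Cpt1a (r = 0.995, 112 genes above 0.95) and for Crb3 Spaca6 (r = 0.999, 31 genes above 0.95). The points share libraries and groups, so a gene that differs between the groups is like many others, and no p is given. For the members that did not pass, the closest were Rab26os with Patj, Afdn with Lin7c, Slc10a7 with Dlg1, Kdm4c with Mark2, Mut with Mark3 and Ehmt2 with Stk11, at r of 0.980 to 0.996.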

How the data were processed

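RNA of 6 organoid libraries was measured by 3' tag sequencing (Lexogen QuantSeq 3' FWD with optional molecular identifiers, 200 ng of total RNA, single-end), per the labels' protocols. Per the submitters' processing notes, the genome build was GRCm38. Not given in the sources used here are aligner, counter, strand setting, molecular identifier handling and annotation. The authors deposited CPM for 20756 genes. Of its columns 0 were unmapped. Of 124536 values 100% were whole multiples of 1 read (tolerance 1e-06), so whole reads were recovered. On these, edgeR 4.0.16 called 3754 genes. Replicates were numbered in accession order, and no pair of libraries agreed within sampling noise (chi-square per degree of freedom 1.63 to 3.18).

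Symbols and positions came from GENCODE M21, with no entry for 81 genes. Genes at 1 CPM or more in at least 3 of 6 libraries were tested with limma 3.58.1 (R 4.3.3) on log2(CPM + 1), with trend and robust moderation, two-sided, Benjamini-Hochberg adjusted over 12195 genes. Alternatives were other pseudocounts, filters, scalings, thresholds, plain moderation, chromosome medians removed (genes at 10 CPM or more, chromosomes with at least 50), each library left out, edgeR and DESeq2 1.42.0. On simulated reads with 200 of 12002 genes changed, limma recovered 44.6% of 1.5-fold and 78.8% of 2-fold changes. The simulation gave all genes 1 dispersion and drew changed genes from all levels, whereas 31.8% of tested genes were called in the data. These rates therefore do not measure the power for the members. Members and lists were chosen with earlier results of these data known. The rule named the members, every called gene of the wider list, genes of the PAR complex and the most similar gene of each member. Uncalled genes of the wider list, factors of the E-box and within-library ratios were added after values were seen.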

Additional observations from a re-analysis of the deposited data

How the results depend on the processing

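Each member's log2 fold change was recomputed under 19 alternatives. Mpp5 and Stk11 kept sign and call in all of them. With TMM factors, median-of-ratios factors, edgeR and DESeq2 the log2 fold change of Dlg1 was 0.053, 0.054, 0.052 and 0.053 and that of Mark3 was 0.0058, 0.0063, 0.0027 and 0.0036, in place of -0.05 and -0.10. These settings moved the median of all genes to between -0.02 and -0.01. Mark2 passed at 0.37, 0.37 and 0.36 in the first 3 of them. With chromosome medians removed Scrib did not pass (-0.41), Patj passed (-0.46) and 5 genes of the PAR1/LKB1 module were called in place of 9. With plain moderation Crb3 did not pass (0.36), 1 member was higher, and 9 genes of the wider list were called, 1 of them higher, with 3 in the Crumbs module and 3 in the PAR1/LKB1 module. DESeq2 called 2540 genes, 1118 of them lower, with 7 lower genes of the wider list and 2 calls in the Scribble module. At an adjusted p of 0.01, 1615 genes were lower, Crb3 (0.36) did not pass, 1 member was higher and 3 genes of the Crumbs module were called. At 0.1, 5 members were called, 2 of them lower, with Patj (-0.33) and Mark2 (0.27) passing. With each library left out in turn, the log2 fold change ranged from 0.29 to 0.45 for Crb3, from -0.47 to -0.21 for Patj, from -0.028 to 0.044 for Lin7c and from 0.14 to 0.38 for Mark2. In these settings 2 to 4 members were called, 1 to 3 higher and 1 to 2 lower, and 3 to 5 genes of the Crumbs module. The causes of these shifts were not tested. No paired analysis was possible because the replicate numbers follow accession order and pair nothing. Depth limits the low genes most: Scrib, the lowest member, rests on 133 reads in sgPrkci and 255 in sgScr, so its counting interval alone spans 0.488 to 0.751.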
